A study of Mus musculus with 12 samples.

Results

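The comparison set combined checkpoint blockade against anti-CTLA-4 alone in tumour-specific CD8 T cells of C57BL/6 wild type mice at post natal day 91. The anti-CTLA-4 arm and the Combo arm, which had anti-PD-1 DANA as well, each gave 3 libraries, 6 of the 12 in the series. Both arms thus received anti-CTLA-4, and they differed by anti-PD-1 DANA, an antibody against PD-1 whose Fc mutation removes binding to Fc receptors. The series also holds an isotype control arm and an arm with anti-PD-1 DANA alone. All mice carried TRAMP-C2, a transplantable mouse prostate tumour line, and had antibody on days 3, 6 and 9 (the series text gives day 8 for the third dose). Live cells positive for CD45, CD3, CD8 and the tumour antigen reagent Spas-1, and negative for Spas-2, were taken by sorting from the draining nodes at day 28. The cells of 5 mice made 1 pool in each arm, which was then split in 3. The 3 libraries of an arm are therefore parts of 1 pool, every p-value below measures the spread between such parts, and arm and pool cannot be told apart.

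CTLA-4 and PD-1 are inhibitory receptors of T cells. CTLA-4 competes with CD28 for its ligands on antigen-presenting cells and acts mainly during priming, whereas PD-1 recruits phosphatases that dampen T cell receptor and CD28 signalling in cells that have already met antigen. Blocking both can raise T cell activation beyond either alone, and the series title concerns interferon-gamma and the deletion of tumour-specific T cells under the combination. The question here was what the second antibody added at the level of RNA.

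Each arm had been compared with isotype in the authors' deposited tables, and the difference of the log2 fold changes, Combo minus anti-CTLA-4, removes the shared isotype arm. A positive difference means a higher level in Combo. Of 48709 genes listed, 17833 had a value in both tables. Differences are given ± a standard error implied by the authors' p-values, with a two-sided Wald test and a Benjamini-Hochberg adjusted p over all listed genes, and a gene was called at an adjusted p under 0.05. Library sizes recovered from the tables ran from 14729713 to 29583827 reads for anti-CTLA-4 and from 24594651 to 42556869 for Combo. Group means are in RPKM, reads scaled to exon length and library size. A table holds only the larger of its 2 group means, so the mean of the lower arm was implied from the other mean and the fold change and is marked as implied.

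Combined blockade differed from anti-CTLA-4 alone in 161 genes, 0.903% of those tested, with 77 higher (0.432%) and 84 lower (0.471%) in Combo. Cytosolic ribosomal protein genes made up 26 of the genes called higher, and mitochondrially encoded genes made up 6 of those called lower. Of the remaining calls, 36 higher and 76 lower genes had a standard error of 1 or more and were close to absent in 1 arm. In the former 36 the median group mean was 5.47 RPKM in Combo against an implied or measured 0.0435 in anti-CTLA-4. In the latter 76 it was 0.0741 RPKM in Combo against 12.1 in anti-CTLA-4. The smaller differences of abundant genes and the large differences of scarce ones stand apart in the plot of difference by level.

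**Figure D1:**
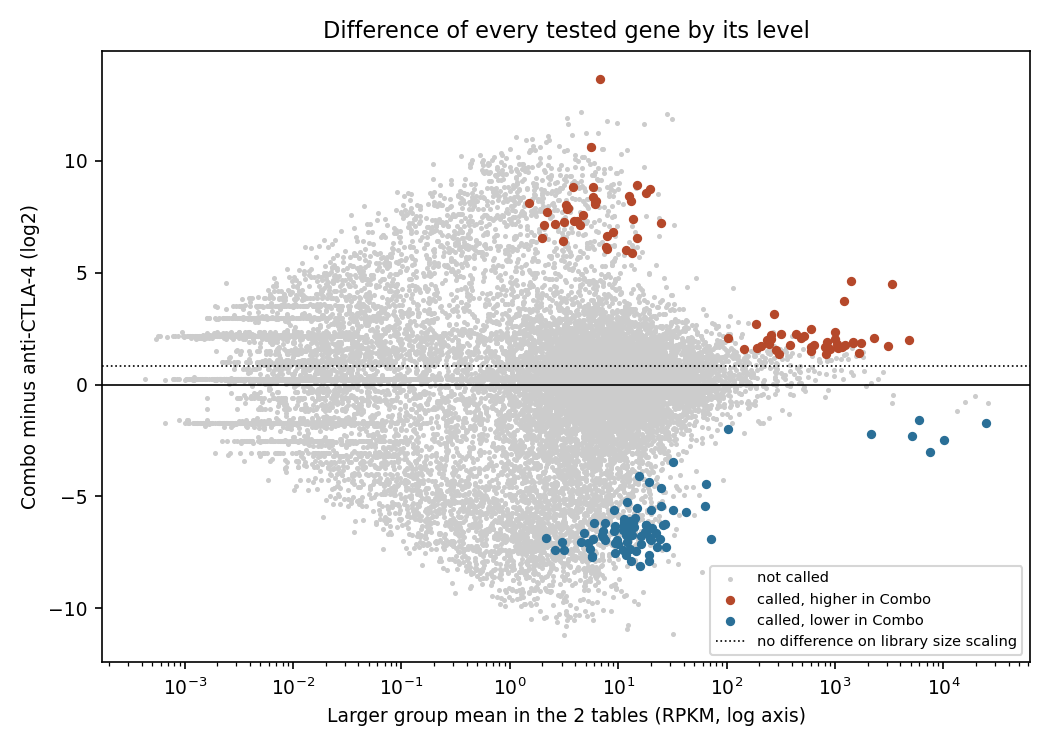
Difference Combo minus anti-CTLA-4 (log2, vertical axis) of every tested gene with a mean above 0, against the larger group mean in the 2 tables (RPKM, log axis); coloured points are called genes and the dotted line marks no difference on library size scaling. Among genes of 100 RPKM or more, 41 were called higher and 7 lower, and between 5 and 20 RPKM 20 were called higher and 54 lower.

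These directions depend on how the libraries were scaled. The authors' fold changes are centred differently from library sizes: among 603 genes with both arm means known, the log2 ratio of the RPKM means minus the authors' difference had a median of -0.84 and an SD of 0.04. The median difference of all tested genes was 0.25 on the authors' scale and -0.59 on library size. Scaled by library size, 295 genes were called (1.65%), 24 higher (0.135%) and 271 lower (1.52%), so the share called higher went from 47.8% to 8.1%. Rebuilding the error of each difference from a negative binomial model gave 379 calls (2.13%), 193 higher (1.08%) and 186 lower (1.04%), and all 161 genes were among them. That error on library size gave 564 calls (3.16%). Values below are on the authors' scale unless library size is named. Genes named only for a call on library size or with the negative binomial error were chosen after their values were seen.

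Ribosomal protein genes, which encode the protein parts of the translating ribosome, were higher in Combo nearly throughout. Of 77 tested, 75 had a difference above 0, the median was 1.31 (all genes 0.25), and 26 were called higher and 0 lower, against 0.432% of all genes called higher. With the negative binomial error 33 were called. Rplp2, a protein of the ribosomal stalk (chromosome 7, 141447370 to 141451585), had a mean of 599 RPKM in Combo and an implied 191 in anti-CTLA-4, a difference of 2.49 ± 0.37 (adjusted p = 1.05e-07). Rpl37a, of the large subunit, stood at 994 RPKM against an implied 349 (2.35 ± 0.36). Rpsa, of the small subunit, stood at 2281 against an implied 955 (2.10 ± 0.33). Rplp1, the partner of Rplp2 in the stalk and the most abundant of the 26, reached 4860 RPKM against an implied 2211 (1.98 ± 0.34). Small-subunit genes such as Rps14 (1.78 ± 0.34) and Rps9 (1.78 ± 0.34) were called alongside large-subunit genes such as Rpl12 (2.05 ± 0.39), Rpl13a (1.82 ± 0.33) and Rpl8 (1.83 ± 0.36). The smallest called difference among them was that of Rps4x, 1.35 ± 0.34. On library size the median of the list was 0.46 with 64 of 77 above 0, and Rplp2, Rpl37a and Rpsa were the 3 still called (adjusted p = 0.00521, 0.0115 and 0.0347). Ribosomal protein genes have many near-identical processed copies in the mouse genome, and how reads were shared among copies is not given in the sources used here.

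RPKM means follow library size, so log2 ratios of means read directly are lower than the differences on the authors' scale. Rpl34 had 397 RPKM in Combo and 268 in anti-CTLA-4, and its difference on the authors' scale was 1.42 ± 0.38 (adjusted p = 0.0549, or 0.0359 with the negative binomial error). Rps3a1 had 1127 and 925 RPKM (1.13 ± 0.36, adjusted p = 0.205). Such genes form a class of 231 with both means known and at 20 RPKM or more, of which 132 had the higher RPKM mean in Combo. Over all 231 the median log2 ratio of RPKM means was 0.11 and the median difference on the authors' scale 0.94. By the main rule 0 of the 231 were called, and with the negative binomial error 2 were, Rpl34 and Atp5e. Both means are known only where both arms lie above isotype in RPKM. Genes with an implied mean, such as Rplp2, are therefore left out of this class, and its calls do not describe abundant genes in general. Other genes among the 8 with the largest positive ratio to error were Cox4i1, a subunit of complex IV (1.40 ± 0.46), Arl4c, a small GTPase (1.69 ± 0.56), and Myl6, a myosin light chain (1.20 ± 0.40). The 8 with the largest negative ratio ran from -0.14 (H2-Ab1) to -0.80 (H2-Aa), all with adjusted p = 1, and included Tgtp1, an interferon-induced GTPase (-0.37 ± 0.82), Grap, an adaptor of lymphocyte signalling (-0.16 ± 0.82), and Cd79a, a B cell receptor chain (-0.57 ± 1.31).

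Many ribosomal protein transcripts start in a run of pyrimidines at which their translation is controlled, so the sequence around the start is shown for the 5 called genes with the largest ratio of difference to error that have an entry in the promoter table. The sequences run 5′ to 3′ from 30 bases before to 20 bases from the RefSeq start (GRCm38.p6), and capitals mark the run CTTTC, the run CTTTT and the run CTTCC on the strand of the gene.
Rplp2, chr7:141447621-141447670, plus strand: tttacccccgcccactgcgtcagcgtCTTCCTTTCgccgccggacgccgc
Rpl37a, chr1:72711230-72711279, plus strand: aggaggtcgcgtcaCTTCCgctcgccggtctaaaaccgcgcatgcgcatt
Rpsa, chr9:120127736-120127785, plus strand: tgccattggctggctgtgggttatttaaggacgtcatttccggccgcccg
Rpl13a, chr7:45128726-45128775, minus strand: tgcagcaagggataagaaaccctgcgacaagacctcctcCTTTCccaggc
Rpl12, chr2:32961682-32961731, plus strand: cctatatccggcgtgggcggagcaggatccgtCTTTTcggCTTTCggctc
One of these letter runs stood in 10 of the 18 called ribosomal protein genes with an entry (55.6%), in 20 of 39 uncalled ones (51.3%) and in 25.7% of 11735 tested genes with an entry. Runs may overlap, as in Rplp2. A run was counted anywhere in the 50 bases. That of Rpl37a lies before the RefSeq start and that of Rpl13a begins some bases after it. The counts therefore do not tell whether a transcript starts in a run. On the other strand the shares were 33.3%, 33.3% and 25.4%. The runs were therefore about as frequent in the uncalled as in the called ribosomal protein genes.

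Outside the ribosomal and mitochondrial lists, 15 genes with a standard error under 1 were called higher and 2 lower, and those named here were chosen after their values were seen, apart from Lars2 and Tpt1. Tpt1, the translationally controlled tumour protein, stood at 489 RPKM in Combo and an implied 209 in anti-CTLA-4 (2.07 ± 0.36, adjusted p = 5.11e-05). Rack1, a scaffold on the small ribosomal subunit, differed by 1.73 ± 0.37, Eef1b2, an elongation factor subunit, by 1.53 ± 0.37 and Fau, whose product is cleaved into a ribosomal protein, by 2.27 ± 0.50. Thy1, a surface glycoprotein of T cells, stood at 256 RPKM against an implied 101 (2.22 ± 0.43, adjusted p = 0.000699). The precise calls in the other direction were Spcs2, a signal peptidase subunit (-3.45 ± 0.79), and Rasal3, a Ras GTPase-activating protein of T cells (-1.97 ± 0.49). On library size Tpt1 (adjusted p = 0.0954), Rack1 (0.553), Eef1b2 (1), Fau (0.276) and Thy1 (0.140) lost their calls, whereas Spcs2 and Rasal3 kept theirs (0.000137 and 2.98e-05).

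Larger still was the difference at loci where reads of ribosomal RNA can be counted. Lars2, which encodes the mitochondrial leucyl-tRNA synthetase (chromosome 9, 123366940 to 123462664), had 3323 RPKM in Combo, 745 in isotype and an implied 261 in anti-CTLA-4, a difference of 4.51 ± 0.33 (adjusted p = 6.90e-39). Gm15564 had 1416, 317 and an implied 103 RPKM (4.62 ± 0.39), and Rn18s-rs5, a locus related to 18S ribosomal RNA, had 1199, 505 and an implied 165 (3.73 ± 0.40). The order Combo, isotype, anti-CTLA-4 held at these 3 loci, and all 3 were called on library size too. In RPKM it did not hold at Gm26917, which lies next to Rn18s-rs5 and had 360 in Combo and 295 in anti-CTLA-4, both above isotype. On the authors' scale it did hold there, with log2 changes against isotype of 0.23 for Combo and -0.90 for anti-CTLA-4. The difference at Gm26917 was 1.13 ± 0.44 (adjusted p = 0.501). The 3 called loci took 4.10% of reads in Combo, 0.977% in isotype and 0.339% in anti-CTLA-4. Whether these reads come from Lars2 messenger RNA or from ribosomal RNA was not tested.

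Mitochondrially encoded genes, the 13 protein-coding genes of the mitochondrial DNA that supply core subunits of the respiratory chain, went the other way. Their median difference was -1.18, 11 of 13 were below 0, and 6 were called lower (0.471% of all genes were) and 0 higher. With the negative binomial error mt-Nd1 was also called, and on library size 11 were called lower (1.52% of all genes were). mt-Atp8, a subunit of ATP synthase (MT, 7766 to 7969), had 4222 RPKM in isotype, 7584 in anti-CTLA-4 and an implied 520 in Combo, a difference of -3.01 ± 0.38 (adjusted p = 1.27e-11). mt-Cytb, the cytochrome of complex III, had 5684, 10097 and an implied 1005 RPKM (-2.49 ± 0.33, adjusted p = 3.76e-10). For mt-Co1, the catalytic core of complex IV, the means were 15889, 24910 and an implied 4254 RPKM (-1.71 ± 0.32, adjusted p = 0.000309). In RPKM all 3 stood above isotype in anti-CTLA-4 and below it in Combo. On the authors' scale the former direction turned, since the authors' deposited table gives log2 changes of -0.12, -0.12 and -0.30 for anti-CTLA-4 against isotype, each with an FDR of 0.999989.

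The differences were uneven along the mitochondrial DNA. Among complex I subunits mt-Nd4l (-2.32 ± 0.36), mt-Nd5 (-2.22 ± 0.33) and mt-Nd4 (-1.61 ± 0.33) were called, while mt-Nd1 stood at -1.18 ± 0.33 (adjusted p = 0.0832, or 0.0495 with the negative binomial error). mt-Nd2 stood at -0.46 ± 0.35, mt-Nd6 at 0.09 ± 0.36 and mt-Nd3 at 0.59 ± 0.39. mt-Atp6 and mt-Atp8 overlap by their coordinates and are carried on a shared transcript, yet mt-Atp6 differed by -0.83 ± 0.34 and had 25556 RPKM in anti-CTLA-4 against an implied 7991 in Combo. mt-Co2 and mt-Co3 stood at -0.80 ± 0.32 and -0.51 ± 0.33. mt-Nd6 (MT, 13552 to 14070) lies on the strand opposite to the others and overlaps only the end of mt-Nd5 (11742 to 13565), and without a stated strand setting reads in that short overlap cannot be told apart.

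**Figure D2:**
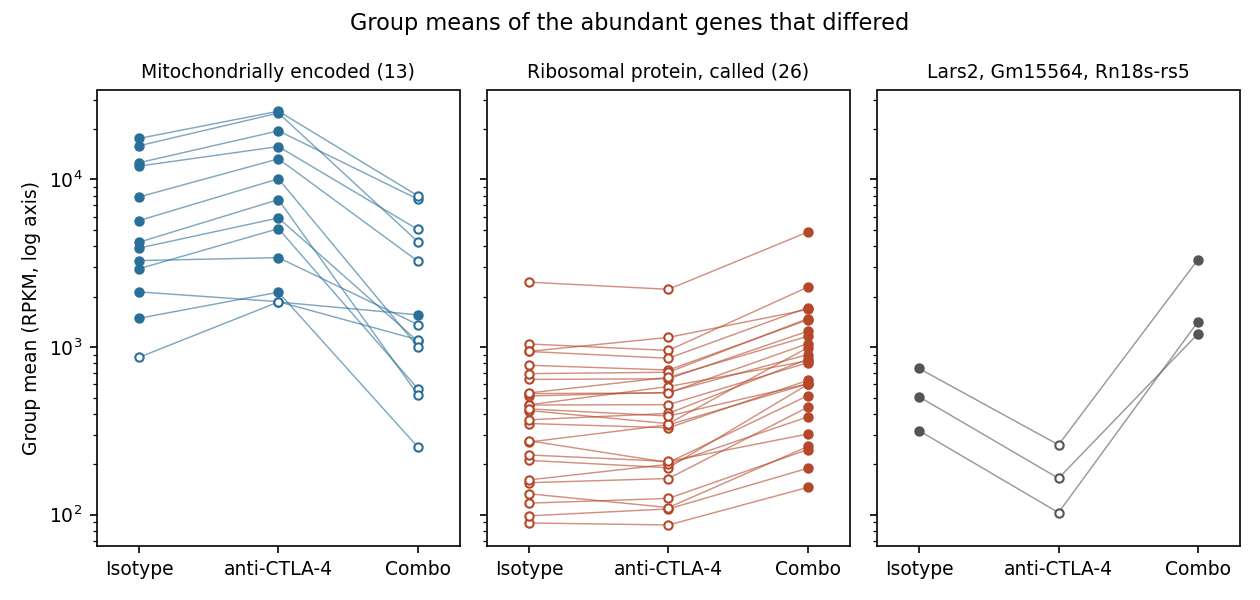
Group means in RPKM (log axis) in isotype, anti-CTLA-4 and Combo for the 13 mitochondrially encoded genes, the 26 called ribosomal protein genes and 3 loci called higher; filled circles are means read from the tables, open circles are implied ones, and a line joins the means of 1 gene without implying an order of arms. mt-Atp8 goes from 7584 in anti-CTLA-4 to 520 in Combo, Rplp2 from 191 to 599 and Lars2 from 261 to 3323.

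As shares of all reads, computed from these means and exon lengths, mitochondrially encoded genes took 8.33% in isotype, 12.6% in anti-CTLA-4 and 3.05% in Combo. Ribosomal protein genes took 5.32%, 6.08% and 8.62%. Of the 13 mitochondrial means 12 were known in isotype, 12 in anti-CTLA-4 and 1 in Combo. Of the 77 ribosomal protein means 3, 19 and 65 were known, and the rest were implied. The shares do not depend on the authors' centring of the median gene except through the implied means, and they have no replicate check. The nuclear genes of oxidative phosphorylation, which encode the rest of the same complexes, had mostly differences of the other sign. Of 76, 62 were above 0, their median was 0.74, and 0 were called by the Wald test, with 12 at an unadjusted p under 0.05 (all genes 12.5%) and 3 called higher with the negative binomial error. Atp5e, an ATP synthase subunit, had 138 RPKM in Combo and 52.4 in anti-CTLA-4, 2.25 ± 0.60 (adjusted p = 0.0549, or 0.0358 with the negative binomial error). Uqcrh, of complex III, stood at 1.79 ± 0.48 (adjusted p = 0.0524, or 0.0342). On library size the median of this list was -0.10.

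**Figure D3:**
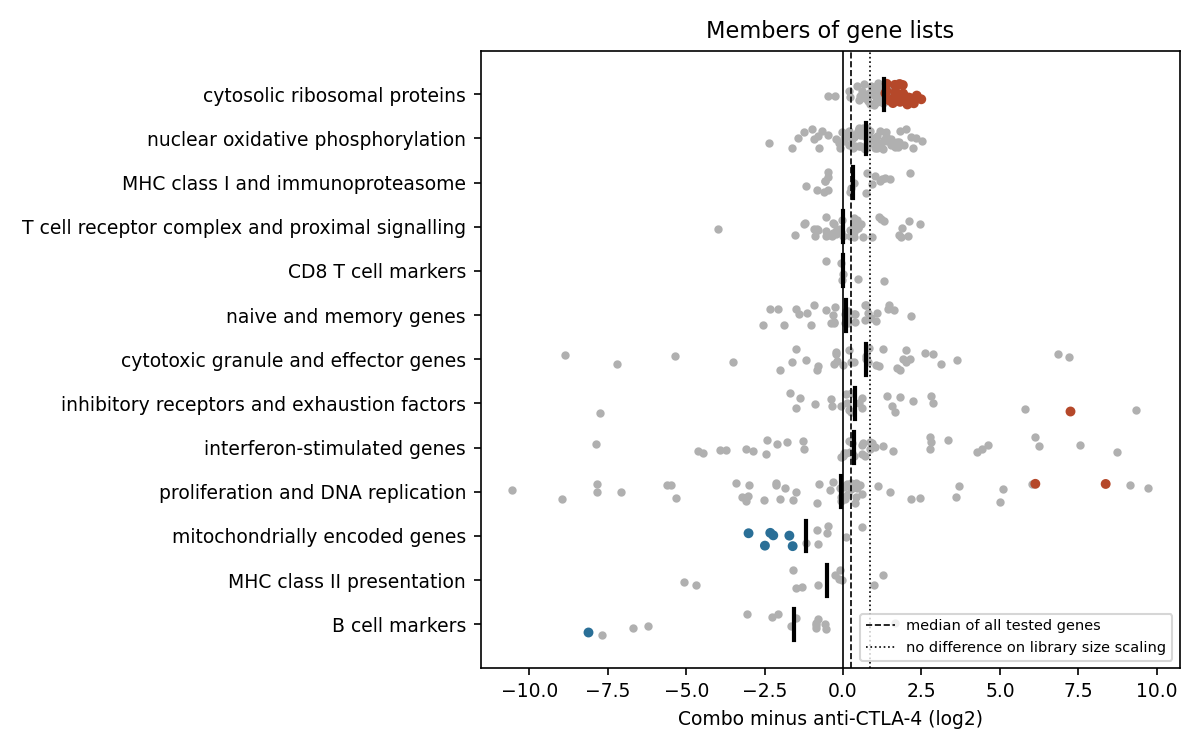
Difference Combo minus anti-CTLA-4 (log2, horizontal axis) of each tested member of 13 gene lists; grey points were not called, red were called higher and blue lower, and the thick bar is the list's median. The ribosomal protein median lies at 1.31 and the mitochondrially encoded median at -1.18, on either side of the median of all genes at 0.25.

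The immune gene lists held few calls. In all, 21 lists of T cell and metabolic biology with 662 tested genes were examined, and 14 of them had no member called by the Wald test. Over all tested genes 12.5% had an unadjusted p under 0.05, and 2.13% were called with the negative binomial error. The unadjusted and negative binomial counts of each list below are to be set beside these shares. Among inhibitory receptors and exhaustion factors, 1 of 26 was called higher and 0 lower, against 0.432% and 0.471% of all genes. It was Lag3, an inhibitory receptor for MHC class II (chromosome 6, 124904361 to 124911705), at 7.24 ± 1.44 (adjusted p = 0.000955). Its mean was 24.9 RPKM in isotype and an implied 13.8 in Combo and 0.163 in anti-CTLA-4, so the anti-CTLA-4 arm stood apart from the other two. Pdcd1, which encodes PD-1, the target of the added antibody, had 18.4 RPKM in isotype, an implied 11.5 in Combo and 13.6 in anti-CTLA-4 (0.60 ± 1.47, 95% interval -2.28 to 3.47). Ctla4 stood at 1.83 ± 2.10. The intervals of both genes leave room for several-fold differences either way. The list's median was 0.38.

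The interferon-gamma genes named in the series title did not differ detectably. Ifng, the cytokine itself, had 14.2 RPKM in isotype, an implied 11.4 in Combo and 7.27 in anti-CTLA-4 (1.49 ± 1.86, 95% interval -2.16 to 5.13). Ifngr1, the ligand-binding receptor chain, had 28.0 RPKM in Combo and 50.7 in anti-CTLA-4, a difference of 0.02 ± 0.89 on the authors' scale and -0.82 on library size. Ifngr2, the signalling chain, stood at -0.36 ± 1.87. Of 21 genes of interferon-gamma and its signalling 0 were called, with 2 at an unadjusted p under 0.05 and a median of -0.30. With the negative binomial error 1 was called, Il12rb2, the interleukin-12 receptor chain that drives interferon-gamma production. It stood at 4.60 RPKM in Combo and an implied 0.00902 in anti-CTLA-4 (9.67 ± 3.29, adjusted p = 0.282, or 0.0112 with that error). Its Combo libraries held 0, 7.02 and 6.79 RPKM, so 1 of them had no reads. Socs3, a feedback inhibitor of cytokine receptors, stood at -3.51 ± 1.50 (adjusted p = 0.702).

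Genes induced by interferons had differences of both signs. Of 43 interferon-stimulated genes 29 were above 0 and 0 were called with either error, with 9 at an unadjusted p under 0.05 and a median of 0.34. Eif2ak2, the double-stranded RNA-activated kinase, gave 3.34, 15.74 and 0.04 RPKM in the Combo libraries and 0.09, 0.06 and 1.39 in the anti-CTLA-4 libraries, in order of library size (4.42 ± 1.63, adjusted p = 0.403). The ranges overlapped through the third library of each arm. Cmpk2, a nucleotide kinase, stood at 4.62 ± 1.93 (adjusted p = 0.668). Of 16 interferon-gamma-induced GTPases 0 were called with either error and 1 had an unadjusted p under 0.05, Irgm1, which acts on vacuoles of intracellular pathogens, at -3.24 ± 0.94 (adjusted p = 0.103). On library size Irgm1 was called (adjusted p = 0.00772). Gbp10, a guanylate-binding protein, stood at 2.16 ± 1.74. Of 20 genes of MHC class I and the immunoproteasome 0 were called with either error, 4 had an unadjusted p under 0.05, and the 2 with the largest ratio to error were Psmb10, an immunoproteasome subunit (1.49 ± 0.54), and Psme1, a proteasome activator (1.32 ± 0.49). On library size the median of that list was -0.54 (all genes -0.59), with 0 called higher and 3 lower (0.135% and 1.52% of all genes were). The 3 were the class I heavy chain H2-D1 (-1.41, adjusted p = 0.0113), its partner B2m (-1.69, adjusted p = 0.000672) and the peptide transporter Tap1 (-2.02, adjusted p = 0.0255).

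Cytotoxic granule and effector genes gave no call. Of 37 genes 0 were called with either error, 6 had an unadjusted p under 0.05, and the median was 0.74. Prf1 (perforin, which forms pores in target cells) and Tbx21 (T-bet, a transcription factor of effector cells), both chosen after their values were seen, had means of 6.09 and 7.90 RPKM in Combo and 12.8 and 16.6 in anti-CTLA-4. Their differences were -0.23 ± 1.33 and -0.30 ± 1.52. Fasl, the ligand of the Fas death receptor, had the lowest difference of the list, -8.86 ± 3.89 (adjusted p = 0.760). Its anti-CTLA-4 libraries held 0, 0 and 14.9 RPKM, and 1 library thus gave the whole mean. Serpinb6b, an inhibitor of granule proteases, stood at -5.36 ± 1.63 (adjusted p = 0.143, and called on library size at 0.0316). In the same list Ccl4, a chemokine of activated T cells chosen after its values were seen, gave 8.81, 22.7 and 1.50 RPKM in Combo and 13.5, 0.317 and 12.9 in anti-CTLA-4, which overlap.

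Genes of cell death and survival, the process named in the series title, gave 1 call. Birc5 (survivin, an inhibitor of apoptosis needed for cell division; chromosome 11, 117849251 to 117855743) had 8.90, 0.0276 and 8.54 RPKM in the Combo libraries and an implied mean of 0.0326 in anti-CTLA-4 (8.37 ± 1.86, adjusted p = 0.00564). It was thus high in 2 of 3 Combo libraries and near 0 in the other. It was the 1 of 22 BCL2 family and inhibitor of apoptosis genes called, against 0.903% of all genes. With the negative binomial error Bad, which promotes apoptosis, was called too (6.65 ± 1.83, adjusted p = 0.0675, or 0.0392 with that error). Bcl2 itself, the founding survival factor, had 31.3 RPKM in isotype, an implied 13.4 in Combo and 22.5 in anti-CTLA-4 (0.10 ± 0.48, 95% interval -0.85 to 1.04, or -0.75 on library size). Fas, the death receptor, had 4.84 and 8.05 RPKM (0.10 ± 1.83). Of 29 death receptors and caspases 0 were called, 7 had an unadjusted p under 0.05 and the median was -0.42. Casp1, the inflammatory caspase, was called with the negative binomial error (7.07 ± 2.11, adjusted p = 0.124, or 0.0396 with that error). Its libraries held 0.109, 4.72 and 19.7 RPKM in Combo and 0.0907, 0.140 and 0.0903 in anti-CTLA-4, so 1 Combo library lay in the anti-CTLA-4 range. Htra2, a mitochondrial protease, stood at 4.92 ± 1.64 (adjusted p = 0.254). Of 27 genes of p53 and the damage response 0 were called with either error, 4 had an unadjusted p under 0.05, and the 2 with the largest ratio to error were the stress kinases Plk3 (6.24 ± 1.90) and Plk2 (-5.31 ± 2.05). Plk3 gave 1.80, 25.6 and 0.0464 RPKM in Combo, most of it from 1 library, and 0.0805, 0.559 and 0.0401 in anti-CTLA-4, which overlap.

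The sorted cell type was well represented in both arms. Cd8a, a chain of the CD8 co-receptor, had 138 RPKM in anti-CTLA-4 and an implied 77.8 in Combo (0.01 ± 0.43), and Cd8b1, the other chain, had 422 and an implied 330 (0.48 ± 0.40). Cd3d, of the CD3 complex, stood at 1.30 ± 0.40 (adjusted p = 0.149). Of 6 CD8 T cell markers 0 were called with either error and 1 had an unadjusted p under 0.05. The same held for 43 T cell receptor and proximal signalling genes, with 4 at an unadjusted p under 0.05, a median of 0.01 and Fyn, a receptor-proximal kinase, at 2.10 ± 0.81 (adjusted p = 0.493). Among 37 naive and memory genes 0 were called with either error and 6 had an unadjusted p under 0.05. Klf2, a transcription factor of quiescent, recirculating cells, had 92.1 RPKM in isotype, an implied 51.0 in Combo and 20.2 in anti-CTLA-4 (2.18 ± 0.69, adjusted p = 0.182). Ccr9, a gut-homing chemokine receptor, stood at -2.54 ± 0.90 (adjusted p = 0.344, and 0.0351 on library size). On library size Ets1, a transcription factor of T cells (-2.24, adjusted p = 0.00641), was called lower as well, and 0 of this list higher.

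Costimulatory, cytokine and migration genes gave no call by the Wald test. Of 20 costimulatory genes 0 were called with either error, 4 had an unadjusted p under 0.05, and Tnfsf14 (LIGHT) stood at -4.66 ± 1.84 and Tnfrsf9 (4-1BB) at -4.42 ± 1.86. Of 28 cytokine receptors and STATs 5 had an unadjusted p under 0.05 (all genes 12.5%), and 2 were called with the negative binomial error (all genes 2.13%). Besides Il12rb2 this was Il15ra, which presents interleukin-15, at 0.0292 RPKM in Combo and 4.69 in anti-CTLA-4 (-6.49 ± 1.86, adjusted p = 0.0954, or 0.0461 with that error). On library size 3 of this list were called lower and 0 higher (1.52% and 0.135% of all genes were). The 3 were Il15ra (adjusted p = 0.0229), Il2rg, the common gamma chain (-1.98, adjusted p = 0.00162), and Stat6, which signals for interleukin-4 (-2.99, adjusted p = 0.0236). Of 33 chemokine receptors and integrins 0 were called with either error, 4 had an unadjusted p under 0.05, and Itgb3, the integrin beta-3 chain, stood at 6.43 ± 1.81 (adjusted p = 0.0832) and Ccr6 at -4.98 ± 1.69 (adjusted p = 0.280).

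Proliferation genes gave 2 calls, both higher, among 53 tested (0.432% of all genes were called higher), with a median of -0.07. Besides Birc5 this was E2f2, a transcription factor of the cell cycle, with 7.78 RPKM in isotype and an implied 3.24 in Combo and 0.0827 in anti-CTLA-4 (6.13 ± 1.58, adjusted p = 0.0391). The call of E2f2 was lost on library size (adjusted p = 0.0971), where Birc5 and, downward, Rpa2, a subunit of replication protein A (adjusted p = 0.0222), were called. With the negative binomial error 3 were called higher and 1 lower, adding Tyms, the thymidylate synthase (9.15 ± 2.91), and Ccne1, cyclin E1 (-7.84 ± 2.94). The list as a whole held 26 genes above 0 and 27 below. Of 22 glycolytic genes 1 was called lower (0.471% of all genes were), Pfkl, the liver-type phosphofructokinase that commits glucose to glycolysis. It had 22.2 RPKM in anti-CTLA-4 and an implied 0.118 in Combo (-6.63 ± 1.36, adjusted p = 0.00156). Of 36 immediate early and heat shock genes 1 was called higher (0.432% of all genes were), Hspa1a, an inducible chaperone. It had 13.7 RPKM in isotype and an implied 7.83 in Combo and 0.0831 in anti-CTLA-4 (7.40 ± 1.63, adjusted p = 0.00518). On library size Hspa8, a constitutive chaperone, was called lower (-1.27, adjusted p = 0.0412). In Lag3, E2f2 and Hspa1a alike, isotype and Combo held reads and anti-CTLA-4 was near 0 by its implied mean. Reads per library could not be solved for these 3 genes in either arm, nor for Pfkl. Hspa1a has a near-identical neighbour, Hspa1b, so its value is uncertain where reads fit both.

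Markers of B cells lay lower in Combo than in anti-CTLA-4. Of 16 genes 15 had a difference below 0, with a median of -1.57, and their summed level was 295 RPKM in isotype, 773 in anti-CTLA-4 and 267 in Combo. Of these, 1 was called lower (0.471% of all genes were), Spib, an Ets transcription factor of B cells. It had 13.4, 8.11 and 26.1 RPKM in the anti-CTLA-4 libraries and an implied mean of 0.0318 in Combo (-8.12 ± 1.70, adjusted p = 0.00230). With the negative binomial error Cd22 and Pou2af1 were called too. The MHC class II presentation genes, which B cells and other antigen-presenting cells express, were below 0 in 10 of 12, with a median of -0.53. Cd74, the invariant chain, had 157 RPKM in isotype, 373 in anti-CTLA-4 and an implied 84.4 in Combo (-1.32 ± 0.46, adjusted p = 0.319, and 0.00247 on library size). H2-DMa, a peptide editor, stood at -4.69 ± 1.49 (adjusted p = 0.187, and 0.0375 on library size). The H2-Aa and H2-Ab1 chains had 39.9 and 83.9 RPKM in Combo against 121 and 165 in anti-CTLA-4 (-0.80 ± 0.76 and -0.14 ± 0.58). Of this list 0 were called with either error and 3 had an unadjusted p under 0.05. The sort for CD3 and CD8 should have removed B cells. In bulk samples fewer cells of a type and less RNA per cell cannot be told apart, and the part that such cells have in other differences was not tested.

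Summed levels of the other marker lists were small beside CD8 markers, which reached 1826 RPKM in anti-CTLA-4 and 1347 in Combo. Myeloid markers summed to 108 RPKM in anti-CTLA-4 and 3.66 in Combo. Most of the anti-CTLA-4 sum was Lyz2 (lysozyme), with 92.1 RPKM there and an implied 2.76 in Combo (-4.28 ± 1.17, adjusted p = 0.0620, or 0.0394 with the negative binomial error). Of the 9 myeloid markers tested, however, 5 had a difference above 0 and 4 below, with a median of 3.60 (2.75 on library size). C1qb, a complement chain of macrophages, stood at -7.84 ± 3.41 (adjusted p = 0.740). It gave 0, 0.0963 and 21.7 RPKM in anti-CTLA-4 and 0, 0 and 0.0432 in Combo, so the difference rests on 1 anti-CTLA-4 library. Plasma cell markers summed to 14.9 and 1.0 RPKM, with Xbp1 at -4.29 ± 1.51 and Prdm1 at 7.19 ± 3.26. Dendritic markers summed to 21.3 and 9.09, with Itgax at 10.32 ± 3.96 from 2.47, 0.0325 and 0.00489 RPKM in Combo, nearly all in 1 library. For CD4 and regulatory T cells the sums were 9.33 and 0.553. Cd4 gave 0.0101, 0 and 0.00583 RPKM in Combo and 2.22, 5.21 and 0 in anti-CTLA-4 (-7.81 ± 3.47, adjusted p = 0.791, or 0.0488 with the negative binomial error), and Ikzf2 stood at -3.36 ± 1.85. Erythroid and platelet markers summed to 18.5 and 3.11, with Hba-a2, an alpha globin, at -7.84 ± 3.09 (adjusted p = 0.534, or 0.0396 with the negative binomial error) and Hba-a1, its near-identical copy, at -7.38 ± 4.79. NK markers summed to 0.806 and 3.77 (Klre1 at 3.81 ± 2.31 and Itga2 at -4.87 ± 3.05), neutrophil markers to 0.721 and 1.48 (Ly6g at 1.88 ± 1.86) and stroma markers to 6.17 and 10.3 (Pecam1 at 1.58 ± 1.35, Col1a1 at 2.76 ± 2.77). By the Wald test on the authors' scale 0 members of these 8 lists were called (Lyz2 and Ccr9 were, lower, on library size), and their unadjusted counts ran from 0 to 3.

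Scarce genes with very large differences made up the rest of the calls. Gatb, a subunit of the mitochondrial glutamyl-tRNA amidotransferase, had the largest ratio to error, with 14.9 RPKM in Combo and 0.0632, 0.0365 and 0.0629 in the anti-CTLA-4 libraries (8.91 ± 1.55, adjusted p = 3.51e-05). In the other direction Ext2, which elongates heparan sulphate, had 9.26 RPKM in anti-CTLA-4 and an implied 0.0300 in Combo (-7.52 ± 1.42, adjusted p = 0.000309). Hsdl1, an inactive steroid dehydrogenase-like protein, stood at an implied 29.9 and 0.320 RPKM (-5.71 ± 1.12). Pskh1, a serine kinase, had 7.95, 9.93 and 40.3 RPKM in the anti-CTLA-4 libraries and an implied 0.0460 in Combo (-7.89 ± 1.58). Ccdc86 (-7.61 ± 1.52) and Tmem9 (-7.63 ± 1.54) were of the same kind. Such differences come from arms with few or no reads, and their size depends on the authors' fit. With the upper bound of the error for every gene, described below, 10 calls were left in all. None of these was a gene with a standard error of 1 or more. Of the 46 named genes that were called, 38 lost the call there, among them Lag3, Birc5, E2f2, Hspa1a, Pfkl, Spib and Gatb.

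Whole reads could be solved in all 6 libraries for 2904 scarce genes. This needs both arm means, which are known only where both arms lie above isotype in RPKM. Only 12 of the 161 called genes are in this set, so what follows describes the 2904 genes and not the calls in general. With RPKM as it stands, all Combo libraries lay above all anti-CTLA-4 libraries in 44 of them (1.52%) and the reverse in 179 (6.16%). On the authors' scale these counts were 136 (4.68%) and 113 (3.89%). Among the 12 called by the main rule, 4 were separated in each direction on the authors' scale, so 4 overlapped. Of the 54 called with the negative binomial error, 11 were separated upward and 16 downward there, out of 32 higher and 22 lower. Separation was thus found for most of the genes lower in Combo and for fewer of those higher. A test of these 2904 genes by limma on log2(RPKM + 0.5), 3 libraries against 3, called 0, with 79 at an unadjusted p under 0.05 and a smallest adjusted p of 0.706.

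The separated genes, chosen after their values were seen, give the clearest view of single libraries. Reck, a membrane-bound inhibitor of metalloproteases, gave 0.0596, 0.0262 and 0.0295 RPKM in Combo and 3.88, 9.87 and 7.70 in anti-CTLA-4 (-6.72 ± 1.52, adjusted p = 0.00745). Mrpl55, of the mitochondrial ribosome, gave 0.119, 0.122 and 0.0458 against 8.92, 31.6 and 18.9 (-6.88 ± 1.82, adjusted p = 0.0491). Both were held by every anti-CTLA-4 library and by no Combo library beyond a few reads. Upward, Rragc, a Rag GTPase that signals amino acids to mTORC1, gave 3.07, 0.608 and 8.88 RPKM in Combo and 0.102, 0 and 0.0405 in anti-CTLA-4 (7.32 ± 1.80, adjusted p = 0.0239, or 0.0522 on library size). Cpsf4, a factor of messenger RNA 3′ end processing, gave 1.94, 1.11 and 32.7 against 0.415, 0.553 and 0.0658 (6.00 ± 1.49, adjusted p = 0.0272, or 0.0753 on library size), and 1 library gave most of its Combo mean. Both upward calls were thus lost on library size, where Reck (adjusted p = 0.000911) and Mrpl55 (0.00962) kept theirs. In limma the adjusted p was 0.706 for Mrpl55 and 0.869 for Reck.

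**Figure D4:**
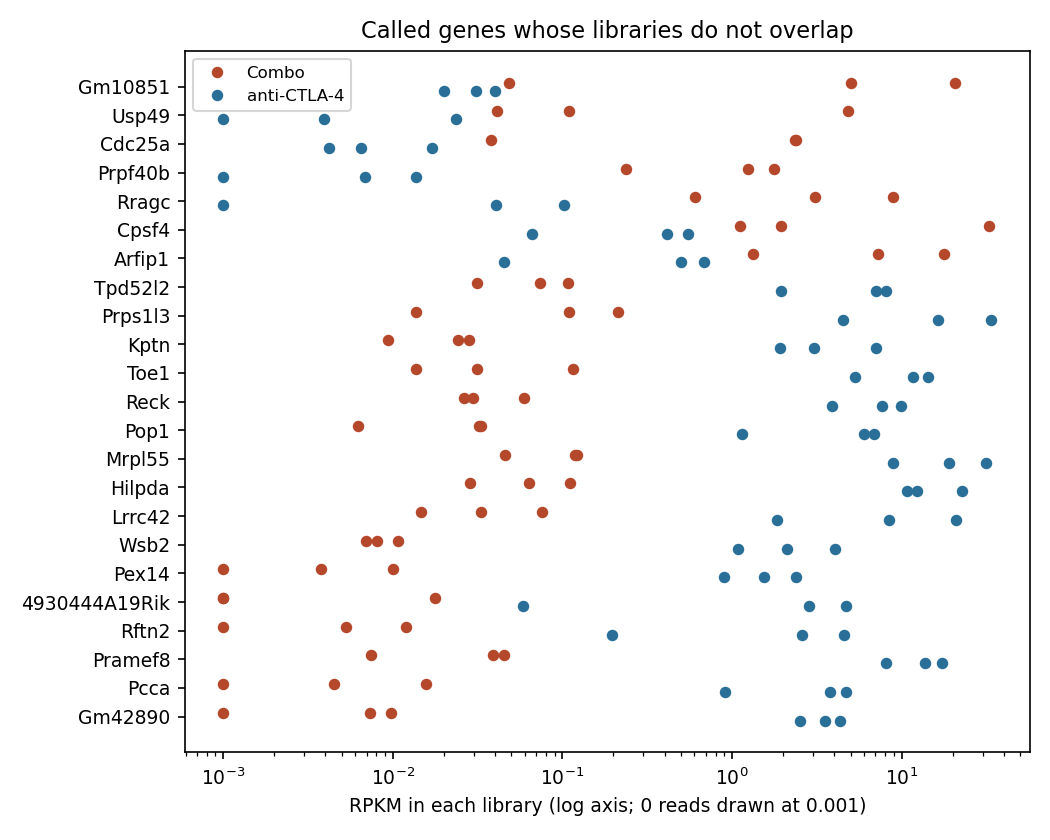
RPKM in each library (log axis, 0 reads drawn at 0.001) of the 23 genes called with the negative binomial error whose 3 Combo and 3 anti-CTLA-4 libraries do not overlap on either scaling. In 16 genes all anti-CTLA-4 libraries lie above, as in Reck at 3.88 to 9.87 against 0.0262 to 0.0596, and in 7 all Combo libraries lie above.

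Resting on 1 library was frequent among scarce genes called higher. Where reads of the larger arm could be solved, 11 of 18 genes called higher (61.1%) drew 80% or more of that arm's reads from 1 library, against 48.5% of uncalled genes with the same sign and a larger mean of 1 to 100 RPKM. Of 26 assessed genes called lower 0 did, against 41.2%. Tmem37, a calcium channel-like membrane protein chosen after its values were seen, gave 0.0310, 58.3 and 0.0717 RPKM in Combo and 0, 0.160 and 0.0774 in anti-CTLA-4, and was called at 8.74 ± 2.11 (adjusted p = 0.0185). Its call rests on 1 Combo library. Leaving such genes out, called or not, gave 133 calls, 62 higher and 71 lower. The lower calls fell from 84 although 0 were found to rest on 1 library. The adjustment still counted all 48709 listed genes, while the genes left out no longer counted in its ranks. The lost calls are therefore not a count of calls resting on 1 library.

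**Figure D5:**
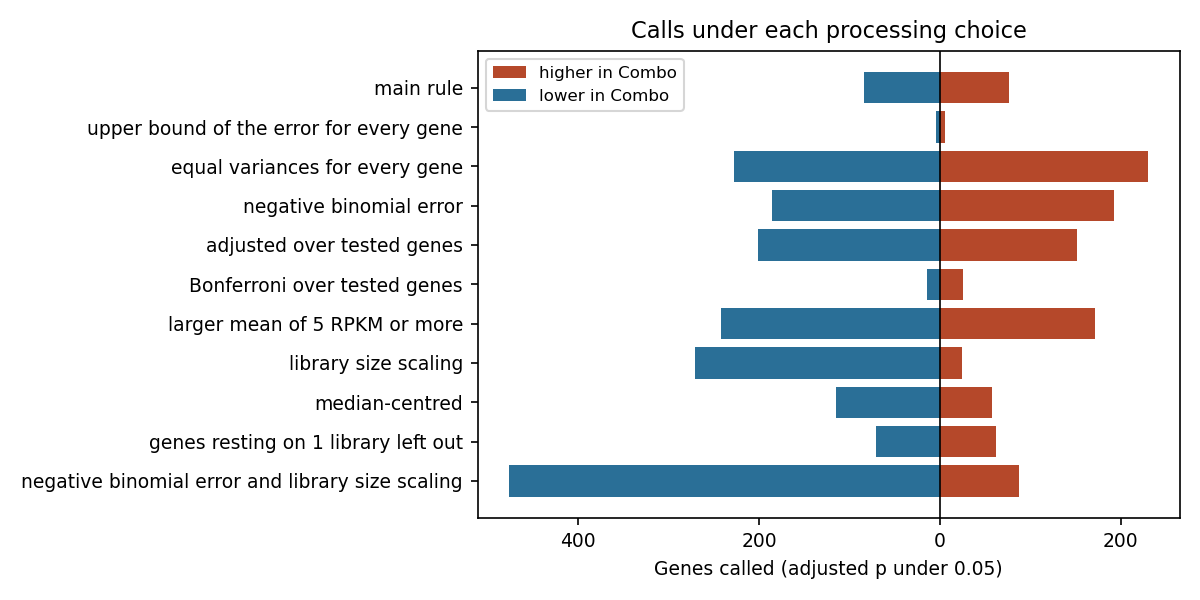
Genes called (horizontal axis) higher in Combo (red, to the right) and lower (blue, to the left) under the main rule and each other processing choice. The main rule gives 77 and 84, and library size scaling gives 24 and 271.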

How the data were processed

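RNA of sorted Spas-1 CD8 T cells was amplified from 0.25 ng with 21 cycles and sequenced. Per the labels' protocols, CLC genomics workbench aligned and counted the reads. The submitters' processing notes name the build GRCm38.p5. The program's version, its annotation and its model are not given. Each deposited table sets a treatment against isotype. Its larger group mean is in RPKM, a unit read from the deposited values, whose low means are whole reads over exon length and library size. The log2 fold change, the signed fold change (a score below 0 where the arm is lower) and the p-value are the authors' own, and their false discovery rate and Bonferroni p-values cover all 48709 genes. No column holds a value per library.

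Members and gene lists were chosen with earlier results of these data known. The standard error of each fold change was implied as its size over the normal quantile of its p-value. Where the errors of the 3 tables lay within 5% of each other (10237 genes, 57.4%), the root mean square over both arms was used, otherwise the upper bound. Named genes were 8 preset ones, called list members, the 10 called genes with the largest ratio to error in each direction, 2 members of each list without a call, and 8 abundant genes in each direction. Other named genes are said to be chosen after their values were seen. Receptor segments and predicted loci were left out of the third kind.

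Library sizes were recovered from means of exactly 1 read, and whole reads per library were solved where chance allowed few solutions (86.3% of Combo and 82.5% of anti-CTLA-4 means tried, with exon lengths from GENCODE M21). They cannot be tied to replicate numbers. The negative binomial error solved 1 dispersion per gene from the 3 errors, which agreed within 5% for 12307 genes (69.0%), and other genes kept the main error. On simulated data of 12307 genes for this comparison, the main rule called 3 of 100 genes changed by 2 on the log2 scale and 7 of 100 changed by 4. It also called 2 of 12107 unchanged ones. The negative binomial error called 4 of 100, 7 of 100 and 5 of 12107. An uncalled gene is thus not shown to be equal. Unchanged genes were also part of the few calls with either error, and more so with the negative binomial one. The limma test and the negative binomial error on library size were added after the data had been seen. Python with numpy, scipy and pandas, and limma in R, were used. Some genes are not reported here.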

Additional observations from a re-analysis of the deposited data

How the results depend on the processing

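The count of 161 calls became 10 (6 higher, 4 lower) with the upper bound of the error for every gene, 458 (230 and 228) with equal variances, 379 (193 and 186) with the negative binomial error, 353 (152 and 201) adjusted over tested genes, 40 (26 and 14) with Bonferroni adjustment, 414 (172 and 242) at a larger mean of 5 RPKM or more, 295 (24 and 271) on library size, and 564 (88 and 476) with the negative binomial error and library size together. Median-centring gave 173 and leaving out genes resting on 1 library 133. Of the 161, 108 were called the same way on library size and 142 after median-centring. Median-centring moved the share called higher from 47.8% to 33.5%, Bonferroni adjustment to 65.0% and the upper bound to 60.0%. List members called went from 37 to 7, 57, 63, 23 and 78 with the upper bound, equal variances, adjustment over tested genes, Bonferroni adjustment and the 5 RPKM filter. Ribosomal protein genes called higher went from 26 to 3, 41, 15, 49, 3, 17 and 4 with the upper bound, adjustment over tested genes, Bonferroni adjustment, the 5 RPKM filter, library size, median-centring, and the negative binomial error with library size. Mitochondrially encoded genes called lower went from 6 to 11 on library size with either error. Fewer genes adjusted over raise the counts by construction. Leaving out genes resting on 1 library lowers them in part by construction, since the adjustment still counted all listed genes. The cause of the other changes was not tested.

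Of the 110 named genes, 5 changed sign on library size without a call: Ifngr1 (-0.82), Fas (-0.75), Bcl2 (-0.75), Pdcd1 (-0.25) and Cd8b1 (-0.37). After median-centring Ifngr1 (-0.23), Fas (-0.16) and Bcl2 (-0.16) did. The limma test on genes with reads in all 6 libraries called 0 in all, 0 with a pseudocount of 0.1, 0 on library size and from 0 to 0 when each library was left out in turn, with 63 to 113 genes at an unadjusted p under 0.05. No paired analysis was possible because the tables carry no value per replicate number and the recovered libraries cannot be tied to one. Count models on all libraries and leaving out a replicate of the main rule were not run for the same reason. Simulated power limits what an absent call can say.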

Other observations

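The use of T cell receptor segments differs between T cell clones. Of 23 tested Trbv segments, the beta variable ones, 1 was called lower in Combo (0.471% of all genes were) and 0 higher, and with the negative binomial error 4 were called lower (1.04% of all genes). Of 50 Traj and 13 Trbj segments 0 were called with either error. Trbv12-1 (chromosome 6, 41113550 to 41114067) gave 64.1, 82.9 and 67.8 RPKM in the anti-CTLA-4 libraries and an implied mean of 0.322 in Combo (-6.92 ± 1.61, adjusted p = 0.0118). Trbv14 gave 75.5, 79.6 and 23.5 RPKM in anti-CTLA-4 against an implied 0.109 in Combo (-8.36 ± 2.47, adjusted p = 0.113, or 0.00376 with the negative binomial error). Trbv31 was spread less evenly, with 7.63, 17.9 and 71.5 RPKM. The median difference was -3.03 over 111 Trav, -1.89 over Traj, -0.52 over Trbv and -0.27 over Trbj segments, against 0.25 for all genes. Among the Trav segments 0 were called by the main rule and 1 with the negative binomial error, Trav12n-3. It had 0, 0 and 93.4 RPKM in the Combo libraries, so that 1 library held all its reads. These segments were chosen after their values were seen, and near-identical segments can share reads.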
